A study of Mus musculus with 9 samples.

Results

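The messenger RNAs of the cytosolic ribosomal proteins were followed in macrophages grown in culture from mouse bone marrow. Members were the rows of the gene table whose identifier maps to a protein-coding symbol that starts with Rpl or Rps and a number, together with Rplp0, Rplp1, Rplp2 and Rpsa. The kinase genes of the Rps6k family, Rps19bp1 and rows with pseudogene names were left out. The rule took 85 of 22165 gene rows, made up of 49 proteins of the large subunit, 33 of the small subunit and 3 of the P stalk, the flexible arm of the large subunit that recruits elongation factors. Of the 85, 8 are divergent paralogs of another member.

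The 9 libraries fell into 3 groups of 3 by their labels. Irg1KO+ITA libraries came from Irg1 knockout cells given lipopolysaccharide (LPS), a bacterial cell wall component, at 100 ng/mL for 24 h, with 1 mM itaconate added 4 h after the LPS. Irg1KO libraries came from the same genotype and WT libraries from wild type cells, and both received LPS alone. All cells were from C57BL/6N mice of 6 to 16 weeks and all had LPS, so no unstimulated library was part of the comparisons. Irg1, also called Acod1, encodes the enzyme that makes itaconate. The labels do not say whether replicates came from different animals or dishes, and every p-value therefore rests on a spread that may be technical.

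Ribosomes carry 4 ribosomal RNAs and a single copy of most ribosomal proteins, and cells make the proteins in matched amounts because surplus ones are degraded. In vertebrates most of these messenger RNAs begin with a C and a run of C and T bases, the terminal oligopyrimidine (TOP) start, through which the kinase mTORC1 and the RNA-binding protein LARP1 adjust how strongly they are translated. Levels of the messenger RNAs are usually steady, and in activated macrophages much of the known control of this family lies in translation, which was not measured.

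Gene reads per library ran between 7361671 and 20430359, at which 3 reads correspond to 0.147 to 0.408 CPM, the reads of a gene scaled to library size. Libraries were primed on poly(A) tails, so reads mark 3′ ends and levels of different genes were not divided by transcript length. Acod1 reads went against the labels of 4 libraries. They numbered 94, 8 and 60716 in Irg1KO+ITA replicates 1 to 3, 154, 170 and 44920 in Irg1KO, and 94, 117 and 31169 in WT. Values are given by label throughout, and the family's median fold change in each comparison is also given without Irg1KO+ITA replicate 3, Irg1KO replicate 3 and WT replicates 1 and 2. Summed CPM of 11 macrophage markers ran between 4095 and 8583 in Irg1KO+ITA, between 7600 and 8368 in Irg1KO, and between 8717 and 11409 in WT. Sums for T and NK, B, erythroid, dendritic and mast cell markers were at most 1.37 CPM in any library, with Cd3e, Cd79a, Alas2 and Cpa3 at 0 reads throughout. Neutrophil markers summed to 221, 168 and 72.8 CPM in Irg1KO+ITA, 165, 218 and 214 CPM in Irg1KO, and 252, 249 and 258 CPM in WT, and fibroblast and stroma markers to between 167 and 273 CPM.

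Of the 85 members, 83 passed the filter on low counts. Their mean level over the 9 libraries ran from 1.18 CPM for Rpl39l to 1034 CPM for Rps9, with a median of 159.7 CPM, against 21.9 CPM for all 10781 genes tested. Rps9, an early-binding protein of the small subunit, had 1647, 824 and 1233 CPM in Irg1KO+ITA, 735, 767 and 1368 CPM in Irg1KO, and 775, 1211 and 748 CPM in WT. The groups overlapped, and the highest value of each came from a different replicate number. Rps29, a zinc-binding protein of the small-subunit head, ranked next at 858 CPM, and Rpl24, Rps24 and Rpl26 averaged 697, 660.4 and 627 CPM. Rps24, another small-subunit protein, had 687, 666 and 605 CPM in Irg1KO+ITA, 606, 600.4 and 725 CPM in Irg1KO, and 715, 567 and 773 CPM in WT. Its groups overlapped within a narrow range. Of the 85 members, 75 averaged at least 10 CPM.

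How much of a messenger's end is its own differed between members. Every stretch of 40 bases in the last 200 bases of 1 annotated transcript per member was looked up in the transcripts of all other genes. The reason is that reads with several alignments are a category of their own in the deposited table, outside the gene counts. Whether the reads come from the end that was looked up was not tested. Among the 83 tested members, 50 shared at least 1 such stretch with another gene. Rpl10, Rpl29, Rpl36a and Rps27 had no unique stretch at all, and Rpl35 had 0.621% unique. The 48 members with at least 50% unique stretches had a median level of 194 CPM, and the 35 below that share 96.5 CPM. Spearman's rho between the unique share and the mean level was 0.23 over the 83 members, a description across genes of the same libraries. Rpl36a reached 93.4 CPM with no unique stretch and Rpl13 549 CPM at 26.1% unique, so a low unique share did not go with a low count in every case. The levels of these genes are uncertain.

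**Figure D1:**
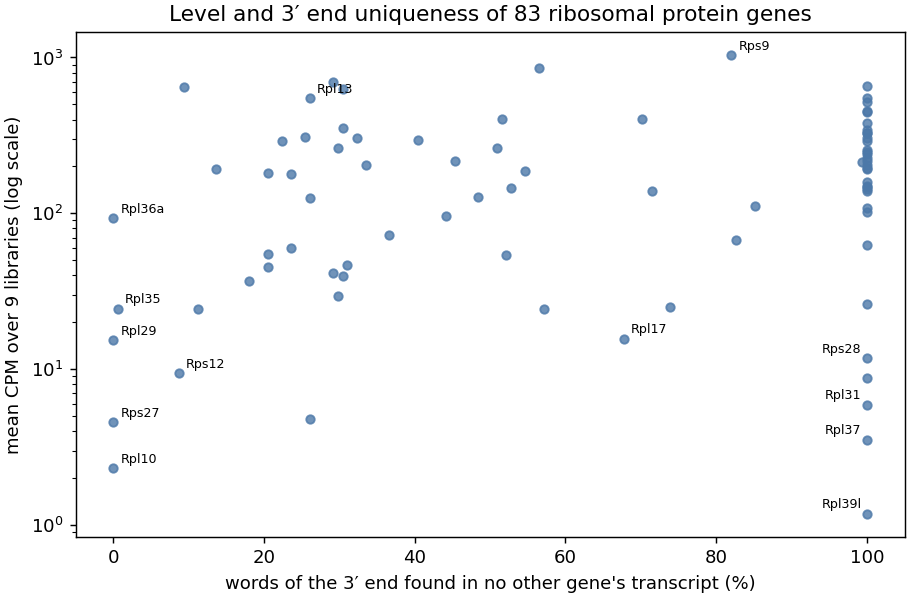
Each point is a ribosomal protein gene that passed the filter (83 genes), with the percentage of 40-base stretches of its 3′ end found in no other gene's transcript on the x axis and its mean CPM over 9 libraries on a log scale on the y axis. Low counts occur at both ends of the x axis, from Rpl10 and Rps27 at 0% to Rpl39l and Rpl37 at 100%.

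The start sites were read to see which members carry the letters of a TOP start. RefSeq promoter windows of GRCm38.p6, of 250 bases before and 50 bases from the start site on, matched 65 of the 85 members by symbol, in 77 windows. A C at the start base followed by at least 4 bases that are C or T was present in 14 of 77 member windows (18.2%) and in 2.51% of all 32851 windows. Motifs were searched on both strands, and none is contained in another. The ETS core CCGGAA was present in 48.1% of member windows and 14.9% of all windows. The YY1 core GATGGC was present in 23.4% against 14.1%, the E-box CACGTG in 10.4% against 7.15%, and TATAAA in 9.09% against 13.6%. The following 30 bases around the annotated start, of which the start base is number 21, are given for 4 steady and 4 straying members. The choice was among members with a single window and at least 10 CPM on average, outside a chromosome that was left out. Of these, Rps3a1, Rpl36a, Rps10 and Rps18 kept closest to the family average across the 9 libraries, and Rpl35, Rps7, Rpl13 and Rps23 strayed most. Capitals mark the longest run of C and T bases in each.
Rps3a1: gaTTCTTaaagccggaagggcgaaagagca
Rpl36a: aggaagtgcaCCCaggcaccgcctataaac
Rps10: acgctgcgccgcgcacgCCCCTTCCTTTCC
Rps18: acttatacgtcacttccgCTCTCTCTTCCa
Rpl35: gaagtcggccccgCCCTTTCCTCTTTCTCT
Rps7: gaagagCTTCCggtttccacccacctactt
Rpl13: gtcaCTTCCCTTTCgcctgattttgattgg
Rps23: acggggccttcggctgggcggggCTTCCCg
They lie on the minus strand at chr3:86142659-86142688 for Rps3a1, chr17:27635235-27635264 for Rps10, chr17:33955656-33955685 for Rps18, chr2:39005122-39005151 for Rpl35 and chr12:28635944-28635973 for Rps7. On the plus strand they lie at chrX:134585634-134585663 for Rpl36a, chr8:123102330-123102359 for Rpl13 and chr13:90923102-90923131 for Rps23. Runs crossing the start base occurred in both sets, with lengths of 13 in Rps10, 11 in Rps18 and 17 in Rpl35. A match is a description of letters in an annotated window, and the start sites used in these cells were not measured.

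Reads of the family were a small part of each library. Member reads made up 2.03%, 1.46% and 1.29% of gene reads in Irg1KO+ITA replicates 1 to 3, 1.77%, 1.78% and 1.83% in Irg1KO, and 1.90%, 2.08% and 1.82% in WT. The exact binomial (Clopper-Pearson) 95% interval of the shallowest library, WT replicate 3, was 1.81% to 1.83%, and intervals and floors cover counting error only. Group means were 1.59 ± 0.388% in Irg1KO+ITA, 1.79 ± 0.028% in Irg1KO and 1.93 ± 0.132% in WT (SD, n = 3 each). Irg1KO+ITA had the widest range, with its replicate 1 above all Irg1KO libraries and its replicates 2 and 3 below every other library. Irg1KO and WT overlapped, since WT replicate 3 lay below Irg1KO replicate 3. The ratio of small-subunit to large-subunit reads was 0.979 ± 0.042 in Irg1KO+ITA, 0.941 ± 0.126 in Irg1KO and 0.978 ± 0.059 in WT, and its lowest value was 0.796 in Irg1KO replicate 1. The P stalk share lay between 0.065% and 0.076% in Irg1KO+ITA, between 0.059% and 0.068% in Irg1KO, and between 0.057% and 0.070% in WT. In bulk RNA, fewer cells of a type and less RNA per cell cannot be told apart.

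**Figure D2:**
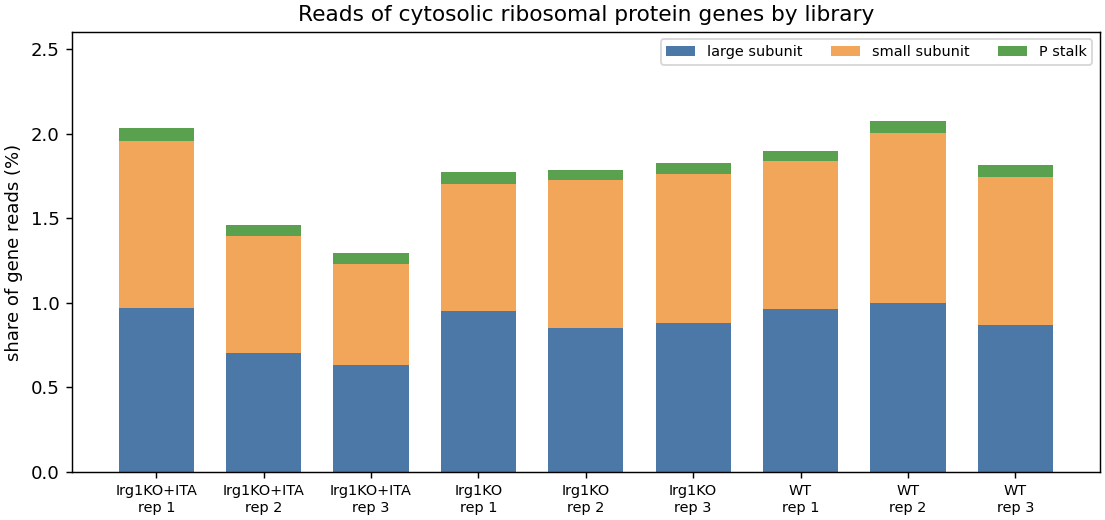
Bars give the share of gene reads (%) on ribosomal protein genes in each of the 9 libraries, split into large subunit, small subunit and P stalk. The lowest bars are Irg1KO+ITA replicates 3 (1.29%) and 2 (1.46%), and the highest is WT replicate 2 (2.08%).

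The library with the lowest share was also the lowest for most single members. Each gene's log2 CPM was set against its own median over the 9 libraries, and the median of the 83 genes in a library was then taken. It was 0.12, -0.19 and -0.67 in Irg1KO+ITA replicates 1 to 3, -0.10, -0.10 and 0.00 in Irg1KO, and 0.01, 0.17 and 0.06 in WT. Irg1KO+ITA replicate 3 was the lowest library for 52 of 83 members (62.7%), and it was the lowest for 26.0% of all genes tested. The members also spread more widely there than elsewhere. The SD of the 83 deviations was 0.758 in that library and 0.608 in Irg1KO replicate 1, against 0.234 to 0.383 in the other 7. Extreme values were also most frequent in these libraries over all genes tested. Of all genes, 19.8% were highest in Irg1KO+ITA replicate 3 and 15.2% in Irg1KO replicate 1, against 6.93% to 12.4% in the other 7. Irg1KO+ITA replicate 3 also had the lowest mitochondrially encoded share (0.709% of gene reads, against 1.27% to 2.57% elsewhere), the lowest macrophage marker sum and the highest share of reads outside genes (33.7%, against 23.1% to 28.4%). The part of these in its low ribosomal protein reads was not tested.

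**Figure D3:**
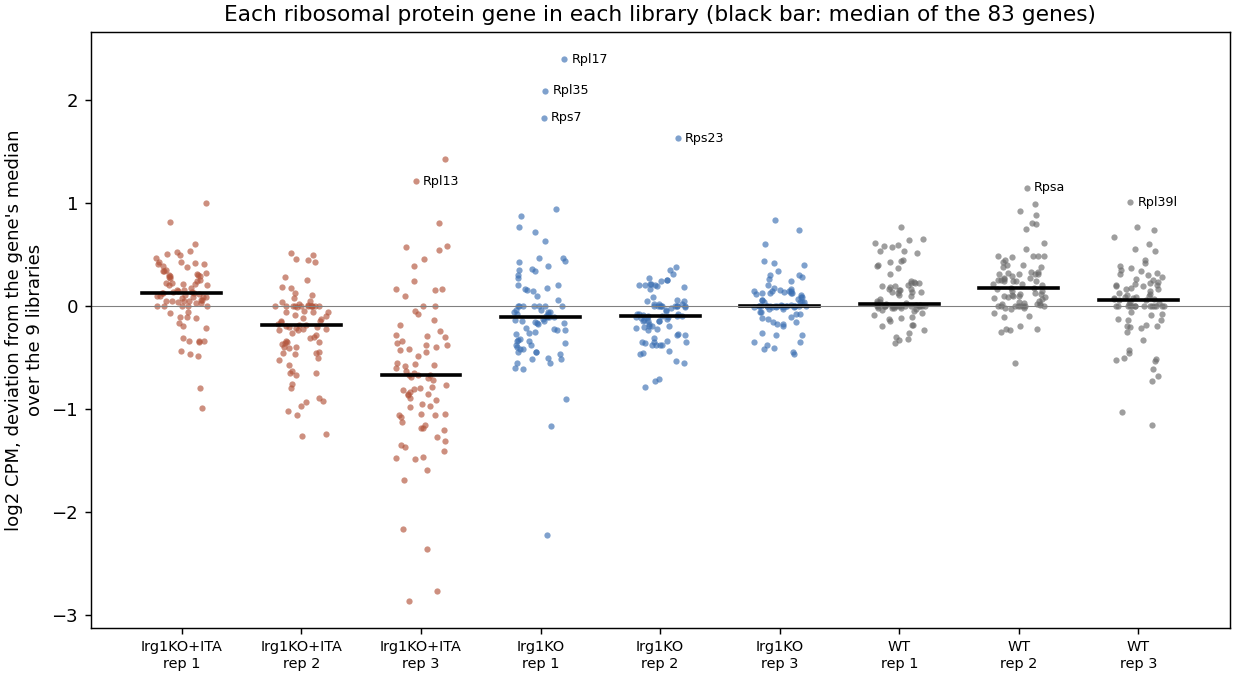
Each point is a ribosomal protein gene (83 per library), placed by its log2 CPM minus its own median over the 9 libraries on the y axis, and black bars are medians. The bar of Irg1KO+ITA replicate 3 lies at -0.67 while the other 8 lie between -0.19 and 0.17, and the named points are among the genes above 2 times their own median.

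Members varied together across libraries to a moderate degree, and less so without this library. The median Pearson r over all pairs of members was 0.38 across the 9 libraries, with 72.4% of pairs above 0, and 0.20 without Irg1KO+ITA replicate 3. Leaving out any other library gave 0.39 to 0.45. Among the members closest to the mean of the others were Rps25 (r = 0.97) and Rpl30 (0.95), over 9 libraries that share the scaling. Rps25, a small-subunit protein, had 233, 169 and 77.3 CPM in Irg1KO+ITA, 217, 205 and 202 CPM in Irg1KO, and 219, 287 and 237 CPM in WT. Irg1KO lay wholly below WT for this gene, while Irg1KO+ITA overlapped WT. Members that ran against the family included Rpl7l1 (r = -0.68), Rpl13 (-0.64), Rplp2 (-0.49), Rps28 (-0.39) and Rpl6 (-0.25). Without Irg1KO+ITA replicate 3 the values for Rpl13 and Rpl6 became 0.18 and 0.39, and that for Rps28 was -0.27.

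The 10 genes outside the family whose pattern was most like its mean over the 9 libraries were, from the closest on, Ndufa13, Ndufs7, Anapc13, Sdhb, Slc35b4, Gstk1, Zscan22, Oas1a, Kptn and Atp5j2, with r of 0.99 to 0.96. Ndufa13, a subunit of respiratory complex I, had 94.4, 64.2 and 34.98 CPM in Irg1KO+ITA, 81.6, 81.4 and 80.5 CPM in Irg1KO, and 93.3, 104.7 and 83.1 CPM in WT. Like the family, it was lowest in Irg1KO+ITA replicate 3, and without that library its r was 0.96, the highest of the 10, of which the lowest was then 0.86 for Kptn.

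Between Irg1KO and WT, which asked what loss of Irg1 does under LPS, most members were slightly lower in Irg1KO, none beyond the test. In edgeR's quasi-likelihood test, adjusted over all 10781 genes, 0 of 83 members passed, as did 0% of all genes, and every member's adjusted p was 0.995 or above. DESeq2 and limma-voom called 0 members as well. Fold changes were negative for 62 of 83 members (74.7%), against 51.1% of all genes, and their median on the log2 scale was -0.19, against -0.01 for all genes. At an unadjusted p below 0.05 there was 1 member, against 3.13% of all genes. All 3 libraries of Irg1KO lay below all 3 of WT for 15 members (18.1%), against 5.76% of all genes, and above them for 1 member, Rpl14, against 4.85%. Of the 15, 7 belong to the large subunit, among them Rpl18, Rpl28, Rpl30, Rpl32, Rpl34 and Rpl39, and 8 to the small subunit, among them Rps3a1, Rps4x, Rps14, Rps15, Rps20, Rps25 and Rps29. The median was -0.21 without the 4 libraries that go against their labels, where WT is a single library. The median ran between -0.25 and -0.17 when libraries were left out in turn. The labels give a number before each barcode, which may be a pool: it is 1 for all WT libraries and for Irg1KO replicates 1 and 2, and differs for the other 4 libraries. With a term for it the median was -0.27, where Irg1KO counts through its replicates 1 and 2 alone. Macrophage and neutrophil marker sums were also wholly below WT in Irg1KO, and their part in the lower family values was not tested.

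Rps29 had 907, 762 and 774 CPM in Irg1KO and 1162, 1122 and 1219 CPM in WT. Every Irg1KO library was below every WT library. The log2 fold change of -0.52 ± 0.33 (SE) had an edgeR adjusted p of 0.995. Rps2, a small-subunit protein, had 19.5, 50.5 and 43.7 CPM in Irg1KO against 67.1, 44.0 and 70.0 CPM in WT, with overlap and a log2 fold change of -0.67 ± 0.35, which was -0.36 without Irg1KO replicate 1. Rpl27a, of the large subunit, had 115, 121 and 174 CPM in Irg1KO against 157, 275 and 176 CPM in WT, and its groups overlapped as well (log2 fold change -0.57 ± 0.34, and -0.29 without WT replicate 2). Rpl39, a protein of the exit tunnel, had 167, 213 and 211 CPM in Irg1KO and 239, 285 and 284 CPM in WT, and its log2 fold change was -0.45 ± 0.29. Rpl28, of the large subunit, had 143, 184 and 204 CPM in Irg1KO against 238, 244 and 248 CPM in WT. Its groups did not overlap either, with a log2 fold change of -0.46 ± 0.37. Rpl14 went the other way, with 395, 233 and 294 CPM in Irg1KO and 215, 228 and 212 CPM in WT (log2 fold change 0.50 ± 0.28, and 0.27 without Irg1KO replicate 1). Its margin between the groups was narrow, since the lowest Irg1KO library and the highest WT library were 233 and 228 CPM.

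Between Irg1KO+ITA and Irg1KO, which asked what added itaconate does to knockout cells, the family median turned on a single library. The median log2 fold change was -0.11, against -0.02 for all genes, and 57 of 83 members (68.7%) were negative, against 51.6% of all genes. It was 0.06 without Irg1KO+ITA replicate 3, -0.33 without Irg1KO+ITA replicate 1 and 0.09 without the 4 libraries. With the pool term the median was 0.13, which rests on Irg1KO+ITA replicate 1 against Irg1KO replicate 3 alone. Irg1KO+ITA replicates 2 and 3 each have a pool number of their own, so the term takes them up. With scaling by total gene reads only, which shifts the median of all genes to -0.10, 66 of 83 members were negative. By edgeR's test 0 of 83 members and 0% of all genes passed, and the smallest adjusted p among members was 0.507. DESeq2 and limma-voom likewise called 0 members. At an unadjusted p below 0.05 there were 5 members (6.02%), all lower in Irg1KO+ITA, against 8.30% of all genes. Groups were apart with Irg1KO+ITA lower for 5 members, Rpl10, Rpl21, Rpl22, Rpl23 and Rps26, against 5.29% of all genes. They were apart with Irg1KO+ITA higher for 3, Rpl6, Rplp2 and Rps28, against 5.61%. Both shares of members, 6.02% and 3.61%, were near those of all genes.

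Rpl22, a large-subunit protein that mouse cells can live without, had 209, 154 and 163 CPM in Irg1KO+ITA, and 401, 253 and 218 CPM in Irg1KO. The groups were apart by a narrow margin, and the log2 fold change was -0.73 ± 0.31 (edgeR adjusted p = 0.567), which was -0.43 ± 0.31 without Irg1KO replicate 1. Rpl21, also of the large subunit, had 120.1, 71.8 and 112 CPM in Irg1KO+ITA, and 264, 163 and 142 CPM in Irg1KO, a log2 fold change of -0.91 ± 0.35 that was -0.59 without Irg1KO replicate 1. Rps26, which lines the channel where messenger RNA leaves the small subunit, had 50.01, 40.5 and 40.2 CPM in Irg1KO+ITA and 58.3, 56.1 and 64.5 CPM in Irg1KO. Its log2 fold change was -0.45 ± 0.25. Rpl6, of the large subunit, ran the other way, with 558, 416 and 607 CPM in Irg1KO+ITA and 375, 376 and 311 CPM in Irg1KO (log2 fold change 0.57 ± 0.28, edgeR adjusted p = 0.604, and 0.35 without the 4 libraries). Rps28, of the small subunit, had 14.03, 15.5 and 14.3 CPM in Irg1KO+ITA and 6.69, 9.82 and 12.7 CPM in Irg1KO, without overlap.

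Between Irg1KO+ITA and WT the family sat lowest, again without a member past the test. The median log2 fold change was -0.34, against -0.01 for all genes, which is a level 21.1% lower. Of the 83 members 69 (83.1%) were negative, against 50.9% of all genes. The median was -0.14 without Irg1KO+ITA replicate 3, -0.57 without Irg1KO+ITA replicate 1 and -0.072 without the 4 libraries, where WT is a single library. With the pool term it was -0.15, where Irg1KO+ITA counts through its replicate 1 alone. Macrophage and neutrophil marker sums were wholly below WT in Irg1KO+ITA too, and their part was not tested. By edgeR 0 of 83 members and 0% of all genes passed, with a smallest adjusted p of 0.518 among members, and DESeq2 and limma-voom called 0 members. At an unadjusted p below 0.05 there were 8 members (9.64%), against 8.88% of all genes. All 8 were lower in Irg1KO+ITA, and they included Rps29, Rpl7a, Rpl23, Rpl12, Rplp0 and Rpl30. Groups were apart with Irg1KO+ITA lower for 14 members (16.9%), against 7.25% of all genes, and higher for 2, Rplp2 and Rps28, against 7.30%. This comparison shares its WT libraries with that of Irg1KO against WT and its Irg1KO+ITA libraries with that of Irg1KO+ITA against Irg1KO, so the 3 sets of values are not independent.

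Rps29 had 805, 683 and 288 CPM in Irg1KO+ITA and 1162, 1122 and 1219 CPM in WT, which put it first by p among members, with a log2 fold change of -0.98 ± 0.33 (edgeR adjusted p = 0.518). All Irg1KO+ITA libraries were below WT, and without replicate 3 of Irg1KO+ITA the change was -0.64 ± 0.25. Rpl7a, a large-subunit protein, had 40.5, 16.4 and 15.6 CPM in Irg1KO+ITA and 56.7, 77.8 and 27.3 CPM in WT. Here the groups overlapped, and the log2 fold change of -1.16 ± 0.41 became 0.07 without the 4 libraries and -1.76 without Irg1KO+ITA replicate 1. Rpl23, of the large subunit, had 328, 269 and 138 CPM in Irg1KO+ITA and 353, 439 and 447 CPM in WT. Its log2 fold change was -0.75 ± 0.31, and -0.46 without Irg1KO+ITA replicate 3. Rpl12, at the base of the P stalk, had 185, 149 and 91.2 CPM in Irg1KO+ITA against 258.5, 251 and 193 CPM in WT. Its log2 fold change was -0.72 ± 0.31, which was -0.48 without Irg1KO+ITA replicate 3 and -0.21 without the 4 libraries. Rpl30 had 55.2, 26.8 and 11.6 CPM in Irg1KO+ITA, against 59.2, 56.5 and 63.2 CPM in WT. In these 3 genes the groups did not overlap and Irg1KO+ITA replicate 3 was the lowest library of all 9.

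**Figure D4:**
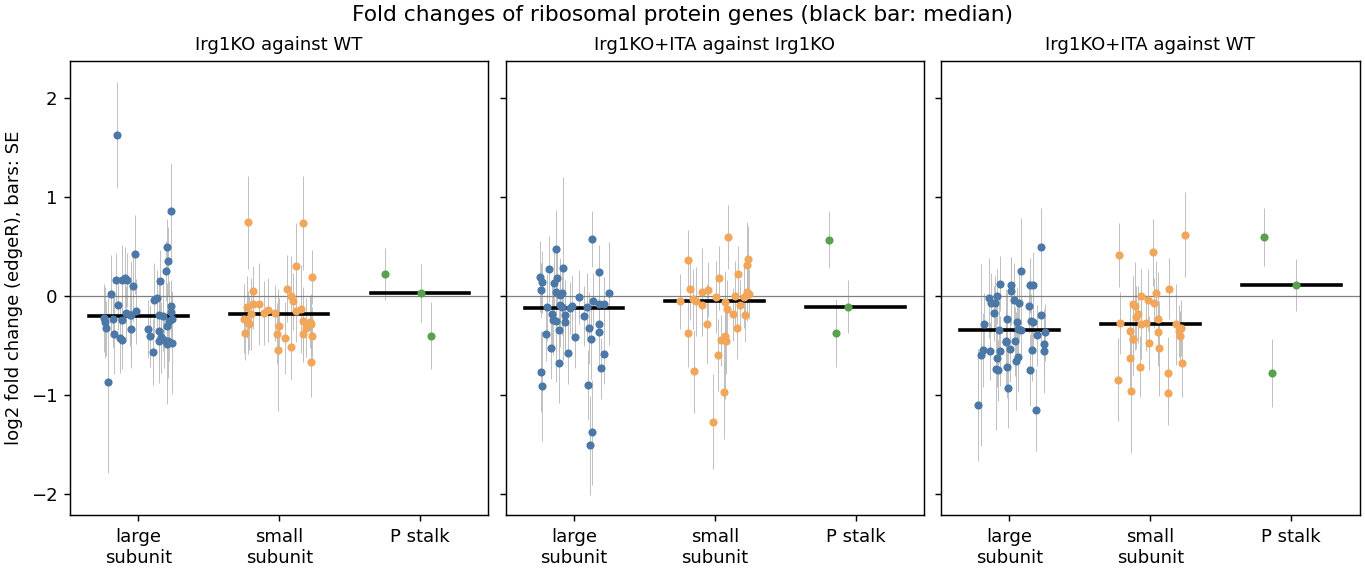
Points are log2 fold changes from edgeR with SE bars for 83 ribosomal protein genes, in panels for Irg1KO against WT, Irg1KO+ITA against Irg1KO and Irg1KO+ITA against WT, split by subunit, with black bars at the medians. Large-subunit medians are -0.21, -0.13 and -0.35 and small-subunit medians -0.18, -0.06 and -0.29 in the 3 panels, and no gene passed the adjusted threshold.

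The medians of both subunits were close in each comparison, while the 3 P stalk genes differed from each other. Rplp0, the protein that anchors the stalk, had 148, 113 and 52.4 CPM in Irg1KO+ITA, 125, 137 and 145 CPM in Irg1KO, and 139, 195 and 204 CPM in WT. Irg1KO+ITA overlapped WT, and the log2 fold change between them was -0.78 ± 0.34, and -0.45 ± 0.28 without Irg1KO+ITA replicate 3. Rplp1, which forms dimers with Rplp2 on the anchor, had 249, 162 and 238 CPM in Irg1KO+ITA, 205, 265 and 232 CPM in Irg1KO, and 187, 214 and 203 CPM in WT. Its 3 groups overlapped. Rplp2 had 357, 398 and 422 CPM in Irg1KO+ITA, 349, 164 and 282 CPM in Irg1KO, and 236, 263 and 283 CPM in WT. Every Irg1KO+ITA library was above every other library, with log2 fold changes of 0.57 ± 0.29 against Irg1KO (edgeR adjusted p = 0.626) and 0.59 ± 0.29 against WT (edgeR adjusted p = 0.573). Without Irg1KO replicate 2 the change against Irg1KO was 0.31. Rpsa, of the small subunit and also known as a laminin receptor, had 155, 59.4 and 88.5 CPM in Irg1KO+ITA, 123, 76.2 and 97.3 CPM in Irg1KO, and 71.8, 196 and 57.8 CPM in WT. Its spread lay within groups, with the lowest and the highest library both WT.

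Departures from a gene's own median were counted in each direction. The lowest library was under 0.5 times the median for 30 of 83 members (36.1%), against 30.7% of all genes tested. In 24 of the 30 that library was Irg1KO+ITA replicate 3. It was the lowest library for 26.0% of all genes tested, at any distance from the median. That share is therefore not a background for the 24. High values of members were spread over several libraries. The highest library exceeded 2 times the gene's own median for 8 of 83 members (9.64%), against 24.2% of all genes tested. That library was Irg1KO+ITA replicate 3 for 2 members and 8.19% of all genes tested. It was Irg1KO replicate 1 for 3 members and 5.05% of all genes tested. Among genes of at least 100 CPM the counts were 4 of 53 members (7.55%), against 18.8% of 1874 genes. In 3 of the 8 the high library was Irg1KO replicate 1, the deepest one, and those 3 were the members with the smallest p between Irg1KO+ITA and Irg1KO. Rpl35, a protein at the tunnel exit, had 13.5, 11.8 and 15.3 CPM in Irg1KO+ITA, 81.2, 19.6 and 14.8 CPM in Irg1KO, and 25.7, 19.6 and 19.0 CPM in WT. A single Irg1KO library was high and the next was within the WT range. The log2 fold change of Irg1KO+ITA against Irg1KO was -1.51 ± 0.50 (edgeR adjusted p = 0.507), and -0.35 ± 0.31 without Irg1KO replicate 1.

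Rps7, a small-subunit protein, had 38.9, 34.4 and 42.1 CPM in Irg1KO+ITA, 192, 32.4 and 54.1 CPM in Irg1KO, and 55.8, 57.4 and 54.0 CPM in WT. Its log2 fold change of -1.27 ± 0.48 between Irg1KO+ITA and Irg1KO became -0.17 ± 0.30 without Irg1KO replicate 1. Against WT, the 3 Irg1KO+ITA libraries of Rps7 were all lower and close to each other. Rpl17, a large-subunit protein, had 14.7, 7.45 and 9.72 CPM in Irg1KO+ITA, 54.9, 9.29 and 18.5 CPM in Irg1KO, and 11.5, 10.3 and 4.95 CPM in WT. It was the member with an unadjusted p below 0.05 between Irg1KO and WT, at a log2 fold change of 1.63 ± 0.54 (edgeR adjusted p = 0.995), which was 0.63 ± 0.45 without Irg1KO replicate 1 and 2.72 without the 4 libraries. Counts behind the high values were large, with 1663 reads for Rpl35, 3934 for Rps7 and 1124 for Rpl17 in that library.

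Abundant members showed the same kind of departure in other libraries. Rps23, which sits at the decoding centre of the small subunit, had 683, 289 and 216 CPM in Irg1KO+ITA, 498, 1389 and 439 CPM in Irg1KO, and 615, 449.8 and 334 CPM in WT. Irg1KO replicate 2 was 3.09 times the gene's median, with 18387 reads. Rpl13, of the large subunit, had 398, 492 and 1141 CPM in Irg1KO+ITA, 457, 339 and 667 CPM in Irg1KO, and 576, 529 and 339 CPM in WT. Rpl13 was highest in Irg1KO+ITA replicate 3, the library in which most members were lowest. Its unique share was 26.1%, and that of Rps23 was 100%. The protocols mention no molecular identifier, so copies of a molecule count separately, and the part of this in the single high values was not tested. By contrast, 48 members stayed within 2 times of their own median in every library.

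**Figure D5:**
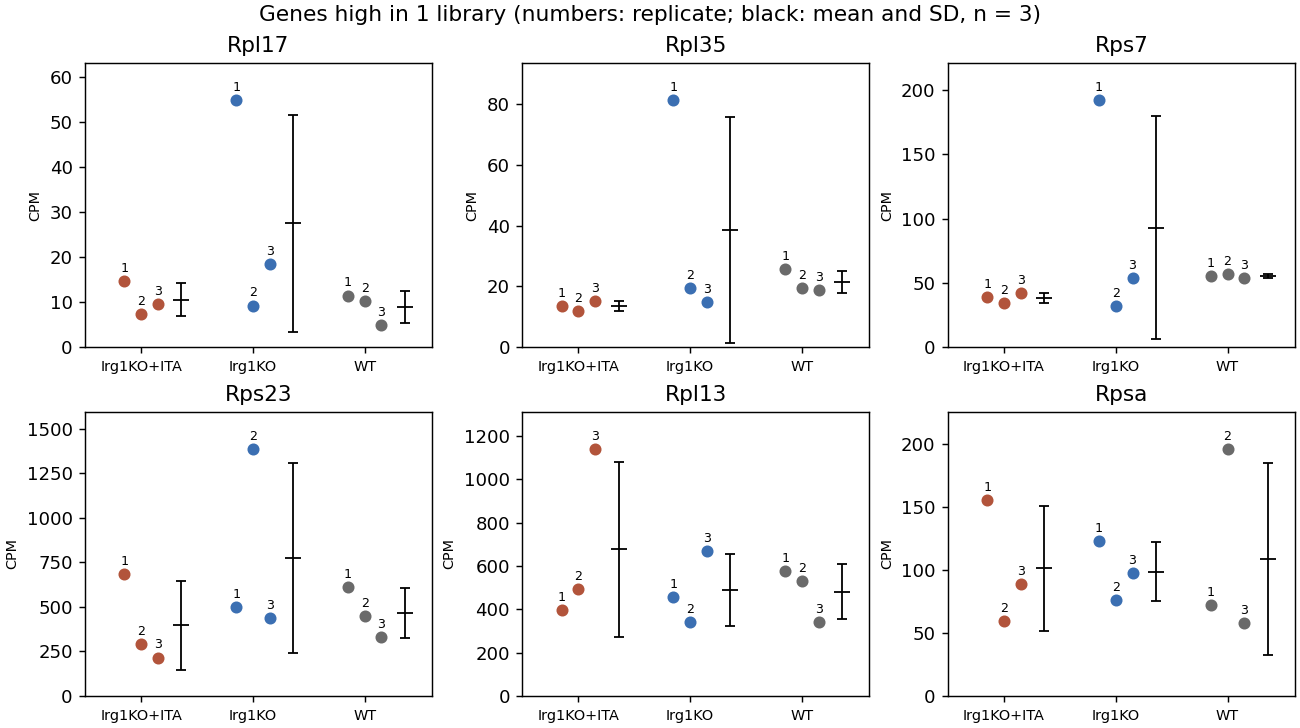
CPM of 6 ribosomal protein genes in each library (coloured points, numbered by replicate) with the mean and SD of each group in black (n = 3). In each panel a single library stands above the other 8, Irg1KO replicate 1 for Rpl17, Rpl35 and Rps7, Irg1KO replicate 2 for Rps23, Irg1KO+ITA replicate 3 for Rpl13 and WT replicate 2 for Rpsa.

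Paralogs that can replace a core protein were mostly scarce or steady. Rpl3l, which replaces Rpl3 in heart and skeletal muscle, and Rpl10l, which stands in for Rpl10 in the testis, did not pass the filter. Rpl3l had 17, 0 and 8 reads in Irg1KO+ITA, 5, 12 and 1 in Irg1KO, and 3, 3 and 8 in WT. Rpl10l had 0 reads in all libraries, which allows up to 0.408 CPM in the shallowest. Rpl39l, known from male germ cells, stayed between 0.0977 and 2.41 CPM while Rpl39 lay between 118 and 285 CPM. Rpl22l1, which Rpl22 holds down in mouse, had 19.0, 24.98 and 23.4 CPM in Irg1KO+ITA, 23.5, 27.6 and 22.2 CPM in Irg1KO, and 24.8, 29.96 and 24.2 CPM in WT. It overlapped between all groups, with a log2 fold change of -0.13 ± 0.26 between Irg1KO+ITA and Irg1KO, beside -0.73 ± 0.31 for Rpl22, which was -0.43 ± 0.31 without Irg1KO replicate 1.

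Rpl7l1, which in other systems acts in ribosome assembly, had 74.4, 114 and 176 CPM in Irg1KO+ITA, 113, 89.0 and 99.9 CPM in Irg1KO, and 150.5, 86.3 and 100.7 CPM in WT. Its highest library was the one lowest for its parent Rpl7, which had 402, 287 and 182 CPM in Irg1KO+ITA, 204, 261 and 326 CPM in Irg1KO, and 299, 377 and 324 CPM in WT. Rpl36a averaged 90.6 ± 27.4 CPM in Irg1KO+ITA, 87.1 ± 7.12 CPM in Irg1KO and 103 ± 9.67 CPM in WT, and its paralog Rpl36al 129 ± 27.1, 133 ± 24.1 and 120.0 ± 20.4 CPM in the same groups (SD, n = 3 each). Rpl36al did not differ between groups beyond that spread. For Rpl36a the Irg1KO and WT means lay further apart than either SD. The log2 fold change between them was -0.24 ± 0.28 (edgeR adjusted p = 0.995). The counts of Rps27 are uncertain, since its end is shared with other genes, and it had 0.528 to 8.43 CPM. Rpl10, which joins late in large-subunit maturation, was also low, with 1.66, 1.21 and 1.27 CPM in Irg1KO+ITA, 2.78, 2.87 and 2.16 CPM in Irg1KO, and 2.88, 4.14 and 1.87 CPM in WT. Rpl27, at 26.1% unique, had 3.97, 6.68 and 0.528 CPM in Irg1KO+ITA, 4.64, 3.10 and 5.61 CPM in Irg1KO, and 8.03, 6.55 and 4.01 CPM in WT. Rps27a, made as a fusion with ubiquitin, averaged 170.4 ± 51.5 CPM in Irg1KO+ITA, 178 ± 66.8 CPM in Irg1KO and 198 ± 10.1 CPM in WT. Rps27rt had 7.71 to 48.8 CPM, at 18.0% unique. Rps27l, a target of p53 that is fully unique at its end, had 230.1, 199.8 and 145 CPM in Irg1KO+ITA, 184, 219 and 258 CPM in Irg1KO, and 247, 268 and 288 CPM in WT. Irg1KO+ITA lay wholly below WT for Rps27l, with a log2 fold change of -0.48 ± 0.27, and -0.31 without Irg1KO+ITA replicate 3.

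The rest of the translation machinery was read from gene lists, in which edgeR called 0 genes in each comparison with all 9 libraries. Among 50 ribosome biogenesis and nucleolar genes, 36 were higher in Irg1KO than in WT, where 51.1% of all genes were lower. Their median log2 fold change was 0.28, with 0.09 without Irg1KO replicate 1 and 0.63 without the 4 libraries, where WT is a single library. Ribosomal protein genes had a median of -0.19. Of the same 50, 34 were lower in Irg1KO+ITA than in Irg1KO, against 51.6% of all genes. The median was -0.27, with -0.08 without Irg1KO replicate 1 and -0.51 without the 4 libraries. Of the 50, 27 were higher in Irg1KO+ITA than in WT (median 0.07, and -0.12 without Irg1KO+ITA replicate 3). Ncl, the nucleolar protein nucleolin, had 289, 311 and 608 CPM in Irg1KO+ITA, 1106, 1002 and 399.5 CPM in Irg1KO, and 467, 308 and 284 CPM in WT. Its Irg1KO and WT libraries overlapped, and its log2 fold change between them was 1.24 ± 0.40 (edgeR adjusted p = 0.995). Heatr1, of early subunit assembly, had 22.1, 21.1 and 15.6 CPM in Irg1KO+ITA and 44.1, 75.6 and 23.3 CPM in Irg1KO (log2 fold change -1.28 ± 0.37, edgeR adjusted p = 0.507).

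Of 7 elongation factors, 6 were lower in Irg1KO than in WT (median -0.25), 3 were lower in Irg1KO+ITA than in Irg1KO (median 0.04) and 5 were lower in Irg1KO+ITA than in WT (median -0.06). Of the 34 initiation factors 19, 18 and 20 were lower in those comparisons, with medians of -0.04, -0.01 and -0.09. Without the 4 libraries these medians were 0.08, -0.05 and 0.02, and those of the elongation factors -0.36, 0.22 and 0.01. Eif4e, the cap-binding protein, was another gene high in Irg1KO replicate 1 alone, with 78.3, 67.0 and 78.4 CPM in Irg1KO+ITA, 546, 87.0 and 91.1 CPM in Irg1KO, and 95.9, 87.1 and 89.0 CPM in WT. All 8 genes of a list of transcription factors linked to ribosomal protein genes were higher in Irg1KO+ITA than in Irg1KO (median 0.43, and 0.35 without the 4 libraries), where 51.6% of all genes were lower. At an unadjusted p below 0.05 there was 1 of the 8, against 8.30% of all genes. In Irg1KO against WT 3 of the 8 were higher (median -0.30, and -0.10 without the 4 libraries). Yy1, whose core motif was counted above, had 150.1, 348 and 163 CPM in Irg1KO+ITA and 83.1, 149.8 and 131 CPM in Irg1KO. The groups were apart by the margin between 150.1 and 149.8 CPM, and the log2 fold change was 0.86 ± 0.37 (edgeR adjusted p = 0.581). In the list of mTORC1 signalling and TOP control, 12 of 24 genes were higher in Irg1KO+ITA than in Irg1KO (median -0.04). Against WT, 9 of the 24 were higher in Irg1KO+ITA and 15 lower (median -0.06). Of this list, Eif4ebp2, a repressor of cap-dependent translation, had 203, 436 and 518 CPM in Irg1KO+ITA, 212, 166 and 233 CPM in Irg1KO, and 159, 226 and 198 CPM in WT. Its log2 fold changes were 0.92 ± 0.33 against Irg1KO (edgeR adjusted p = 0.52) and 0.99 ± 0.33 against WT (0.518), with Irg1KO+ITA overlapping both groups.

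The 13 mitochondrially encoded genes, translated on other ribosomes, were all lower in Irg1KO+ITA than in WT (median -0.84), where 50.9% of all genes were lower. At an unadjusted p below 0.05 there were 9 of the 13, against 8.88% of all genes, and 0 were called by edgeR. Their median was -0.66 without Irg1KO+ITA replicate 3 and -0.60 without the 4 libraries. Between Irg1KO+ITA and Irg1KO, 11 of the 13 were lower (median -0.52), with 5 at an unadjusted edgeR p below 0.05. Between Irg1KO and WT, 10 of the 13 were lower (median -0.36), with 0 at that p. Of the ribosome components outside the naming rule, Rack1 had 155, 147 and 90.1 CPM in Irg1KO+ITA, 101.2, 123 and 124 CPM in Irg1KO, and 135, 149 and 159 CPM in WT. Rack1, a scaffold on the small subunit, was lower in Irg1KO than in WT without overlap (log2 fold change -0.34 ± 0.28). The p53 target Cdkn1a, listed among genes that answer free ribosomal proteins, had 1969.9, 2759 and 6099 CPM in Irg1KO+ITA, 3747, 1979 and 3712 CPM in Irg1KO, and 2249.8, 2619 and 2592 CPM in WT. It was highest in Irg1KO+ITA replicate 3, and its groups overlapped.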

How the data were processed

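Raw counts per gene were deposited by the authors in 1 table. Per the submitters' processing notes, STAR, HTSeq and mm10 were used, with versions and annotation not given in the sources used here. Per the labels' protocols, libraries were strand-specific and primed with oligo-dT. Reads outside genes made up 23.1% to 33.7% of a library and reads with several alignments 17.1% to 20.0%, and both stayed out of library sizes. Symbols and positions came from a GENCODE annotation of GRCm38. All 9 libraries entered 1 fit of edgeR 4.0.16 (R 4.3.3) with group as the term, TMM scaling and a minimum count of 10, which left 10781 genes. Quasi-likelihood tests were two-sided, with Benjamini-Hochberg adjustment over all genes of a comparison and a threshold of 0.05. The fit was tested on simulated data. DESeq2 1.42.0 and limma-voom 3.58.1 were alternatives. CPM are TMM-scaled, except marker sums. The members, lists and naming rules were chosen with earlier results of these data known. Named were the 6 members with the smallest p in each comparison, the 6 most abundant, the P stalk, Rpsa, the paralogs with their parents, the 4 most deviating, those below the filter, and the genes of each list with the smallest p. Other members in the text, such as Rpl13, Rpl28, Rpl30, Rps23, Rps26 and Rps28, were chosen after their values were seen. Some genes that the rule names are not reported here.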

Additional observations from a re-analysis of the deposited data

How the results depend on the processing

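Refits numbered 19, of which 9 dropped a single library. Genes called in all came to 1 for Irg1KO against WT with DESeq2 and 2 once the 4 libraries with Irg1 reads against the label were dropped. For Irg1KO+ITA against Irg1KO they came to 80 without the filter on low counts (1 member, Rpl35), 12 with DESeq2 and 216 without the 4 libraries (1 member, again Rpl35). For Irg1KO+ITA against WT they came to 92 without the filter, 14 with DESeq2 and 1 without the 4 libraries, where the lone WT library is assumed to vary like the others. Leaving out 1 library at a time gave 0 to 6 calls against Irg1KO and 0 to 4 against WT, with calls only without Irg1KO+ITA replicate 1. The Rpl35 log2 fold change, Irg1KO+ITA against Irg1KO, passed at -1.53 (edgeR adjusted p = 0.0402) without the filter and at -2.02 (0.028) without the 4 libraries, and lay at -0.35 (0.955) without Irg1KO replicate 1.

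The members' median log2 fold change ran, over single libraries left out, from -0.25 to -0.17 for Irg1KO against WT, from -0.33 to 0.06 for Irg1KO+ITA against Irg1KO, and from -0.57 to -0.14 for Irg1KO+ITA against WT. A term for the number before the barcode in the labels, which may be a pool, gave -0.27, 0.13 and -0.15. It is partly confounded with group, and with it Irg1KO+ITA counts through its replicate 1 alone. Against WT, Irg1KO then counts through replicates 1 and 2 alone. Without the 4 libraries the medians were -0.21, 0.09 and -0.072, with WT as a single library. The mean share of Irg1KO was 1.83% of gene reads without mitochondrially encoded genes and 1.74% without divergent paralogs, against an SD of 0.028. The median correlation among members ran from 0.20 to 0.45 over single libraries left out. Cause was not tested for any of these. Replicate numbers did not pair the libraries, with r of -0.16 to 0.24 between same-numbered ones, and a fit with replicate number as a block called 0 genes and gave medians of -0.21, -0.13 and -0.36. Depth limits Rpl10l, Rpl3l, Rpl39l, Rpl10, Rps27, Rpl27 and Rpl37 most, each below 5 CPM on average.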

Other observations

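Small nucleolar RNAs guide the modification of ribosomal RNA, and many are cut from introns of ribosomal protein genes. At least 1 is annotated inside 30 of the 85 members. The SD of log2 CPM over the 9 libraries, after subtracting the family mean of each library, had a median of 0.35 in the 30 hosts and 0.31 in the other 53 tested members. In Irg1KO+ITA replicate 3 the hosts lay at a median of -0.02 and the others at 0.00 relative to the family.

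The 18 rows with pseudogene names that the rule left out summed to 238, 100 and 98 reads in Irg1KO+ITA, 376, 247 and 248 in Irg1KO, and 205, 366 and 161 in WT. These are few beside 133723 to 362288 member reads per library, but not beside every single member. Rpl10-ps3 had more reads than Rpl10 in each library. Its reads were 52, 19 and 18 in Irg1KO+ITA, 71, 66 and 49 in Irg1KO, and 43, 63 and 30 in WT. On the annotation, 4 members overlap a protein-coding gene on the same strand, Rpl13, Rpl13a, Rpl36al and Rps10, and 16 overlap one on the other strand.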
